A study of Mus musculus with 4 samples.

Results

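AA467197, also named Nmes1 in mouse and C15orf48 in human, is 1 gene of 27998 in the deposited table of single cells from B16-F10 tumours. It was chosen with its values known, for its pattern over cell types, its co-varying genes and its lower level in Adar1-null tumours, so those values are given here as description and carry no test. B16-F10 is a mouse melanoma line that grows in C57BL/6 mice. The study set the immune infiltrate of tumours lacking Adar1, an enzyme that edits double-stranded RNA and is encoded by Adar, against that of control tumours of the same line. The Adar1-null group holds 2 libraries, S1 and S2, and the control group holds 2 libraries, S3 and S4. In both groups tumour cells were implanted with matrigel, the tumours were taken on day 14, and cells selected for CD45 went into droplet libraries that count the 3′ ends of transcripts by unique molecular identifiers (UMIs). The null allele is in the tumour cells and the host animals carry no stated allele. The sources used here do not say how the null line was made, whether it is 1 clone, what the control line received, or whether a library came from 1 animal.

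AA467197 encodes a small mitochondrial protein that can take the place of Ndufa4, a subunit of respiratory complex IV, the enzyme that passes electrons to oxygen. In mouse macrophages the gene is induced by signals through toll-like receptors. Its transcript also carries the hairpin of the microRNA miR-147, and Ndufa4 messenger RNA is a known target of miR-147. The gene is therefore known both for a protein and for a microRNA that act on the same subunit.

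In the GENCODE M21 annotation of GRCm38, the build also named mm10, AA467197 (ENSMUSG00000033213) lies on the plus strand at chr2:122636986-122641191 and has 4 transcripts. The transcript AA467197-201 has 5 exons, 792 exonic bases and an open reading frame of 83 codons before the stop. The miR-147 hairpin, chr2:122640803-122640881, lies in the last exon of that transcript, in its 3′ untranslated region, and starts 33 bases after the stop codon. The transcript AA467197-203 is annotated to end before the hairpin. Its coding part runs to its last base with no annotated stop codon, so its true 3′ end is not shown. UMIs were counted per gene over all its transcripts, so they do not single out those with the hairpin, and they measure neither the mature microRNA nor the protein. Of the mature forms of this microRNA, RefSeq on GRCm38.p6 gave the 5p form (chr2:122640814-122640837, plus strand). It is shown with its seed, bases 2 to 8, in capitals because it marks the product encoded beside the reading frame. The other mature form was not among the sources used here, and no seed match in Ndufa4 was searched. The seed shown is therefore not given as the one that acts on Ndufa4.
mmu-miR-147-5p: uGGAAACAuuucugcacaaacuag
Of 1738 mature mouse microRNAs in the same table, 1 held this seed, miR-147-5p itself.

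The stretch directly before the first exon of AA467197-201 (chr2:122637755-122637849, plus strand, RefSeq promoter window on GRCm38.p6) is annotated as exon in none of the 4 transcripts. It lies within an intron of AA467197-203, which starts further upstream. The stretch is shown because the gene varied with inducible gene groups described further on, and its capitals mark the letters of the motifs found.
AA467197 promoter: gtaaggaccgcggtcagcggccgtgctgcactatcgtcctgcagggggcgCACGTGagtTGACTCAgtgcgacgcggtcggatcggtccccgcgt
Motifs were searched on both strands in the window of 250 bases before to 50 bases after the RefSeq gene start. The capitals are 1 match to the E-box letters CACGTG, which 7.15% of all mouse promoters of this length also hold, and 1 match to the AP-1 letters TGANTCA, which 7.81% hold. The 2 matches do not overlap. An NF-kB motif (held by 1.47% of promoters), an interferon-stimulated response element (3.44%), TTCNNNGAA of the interferon-gamma activated site (8.3%), TTGCNNAA of C/EBP (10.8%), GAGGAAGT of PU.1 (3.2%), TGACGTCA of the cAMP response element (1.79%) and TATAAA of the TATA box (13.6%) had no match in this window.

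After filters, 8569 of 8838 barcodes were kept, between 1936 and 2749 per library, with a median of 7618 to 8788 UMIs per cell. Cells were put into types by how many fixed marker genes had a UMI, AA467197 not among them, and 89.6% of kept cells fell into 1 gate. The gates held their defining markers: Cd8a had a UMI in 98.2% of CD8 T cells, C1qa in 96.4% of macrophages, Ly6c2 in 77.9% of monocytes, Cd209a in 72.5% of type 2 conventional dendritic cells and Ccr7 in 100% of migratory dendritic cells. Gating counted these markers, so their shares describe the gates and do not check them. Despite the selection for CD45, 1116 cells were melanoma cells by their markers, with Mlana, also a gate marker, in 100% of them. Control library S4 stood apart from the other libraries: its chi-square per gene against each of them was 52.9 to 86.3, against 16.4 to 21.2 among the other three. S4 also held the most macrophages, 60.4% of its cells against 32.2% to 45.7% in the other libraries, and the red blood cell marker list summed to 5518 counts per 1000000 UMIs (CPM) in its monocyte gate, against at most 4.1 CPM in the other libraries. Barcode sequences shared by more than 1 library numbered 38. Adar itself was counted at 9.35 and 12.5 CPM in the melanoma gate of S1 and S2 (Adar1-null) and at 10.9 and 12.7 CPM in that of S3 and S4 (control). 3′ counts do not show whether a transcript is edited or truncated upstream, so this comparison checks nothing about the null allele.

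AA467197 was high in migratory and type 2 dendritic cells, CD8 T cells and monocytes, lower in macrophages and near 0 in tumour cells. Its level, in CPM of all UMIs of a gate and library, was highest among the gates with at least 20 cells per library in migratory dendritic cells, the mature Ccr7-positive type that carries antigen to lymph nodes. There it stood at 683 and 660 CPM in S1 and S2 (Adar1-null) and at 923 and 516 CPM in S3 and S4 (control). Conventional type 2 dendritic cells (cDC2), which present antigen chiefly to CD4 T cells, had 284 and 313 CPM in Adar1-null and 426 and 613 CPM in control libraries. CD8 T cells had 165 and 188 CPM in Adar1-null and 427 and 395 CPM in control libraries. In CD8 T cells the 2 groups stood apart, with both Adar1-null libraries below both control libraries, as for 14.1% of the genes tested there.

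Monocytes had 200 and 265 CPM in Adar1-null and 235 and 410 CPM in control libraries. Macrophages had 55.2 and 56.5 CPM in Adar1-null and 67.6 and 98.5 CPM in control libraries. Type 1 conventional dendritic cells (cDC1), which cross-present antigen to CD8 T cells, had 9.86 and 37.7 CPM in Adar1-null and 13.2 and 4.31 CPM in control libraries, from 8 or fewer UMIs in each library. The dendritic gates were thus not alike, and the cDC1 level was far under the cDC2 and migratory levels in every library. Melanoma cells had 3.39 and 3.97 CPM in Adar1-null and 4.3 and 5.85 CPM in control libraries. In the order of means over the 4 libraries, the ranges of neighbours among migratory dendritic cells (696 ± 169), cDC2 (409 ± 149), CD8 T cells (294 ± 136) and monocytes (278 ± 92.2; SD, n = 4 libraries) overlapped. Macrophages (69.5 ± 20.2) lay below every library of the monocyte gate, and melanoma cells (4.38 ± 1.05) lay below every library of the macrophage gate.

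**Figure D1:**
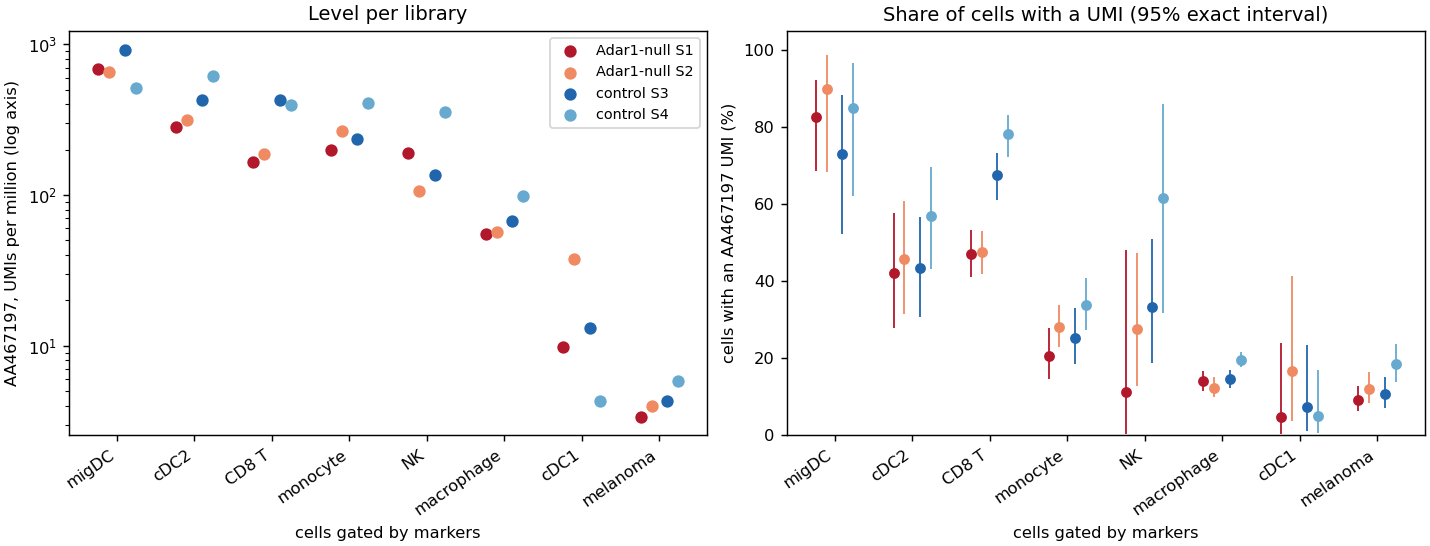
AA467197 in 8 marker gates: left, CPM on a log axis, 1 point per library; right, the share of cells with at least 1 UMI, with its 95% exact binomial interval (counting error only). In CD8 T cells both Adar1-null points (165 and 188) lie below both control points (427 and 395), while in migratory dendritic cells the groups overlap.

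The share of cells with an AA467197 UMI followed a like order. Migratory dendritic cells held a UMI in 82.6% (68.6 to 92.2) and 90% (68.3 to 98.8) of cells in Adar1-null libraries and in 73.1% (52.2 to 88.4) and 85% (62.1 to 96.8) in control libraries, with 95% exact binomial intervals that cover counting error only. CD8 T cells held one in 47.1% (41.1 to 53.2) and 47.5% (41.9 to 53.1) in Adar1-null libraries and in 67.5% (61.2 to 73.3) and 78.2% (72.4 to 83.3) in control libraries. Among CD8 T cells both Adar1-null shares lay below both control shares. The intervals leave out the spread between libraries, so they do not compare the groups. Monocytes held one in 20.6% and 28.1% of cells in Adar1-null and 25.2% and 33.8% in control libraries. Macrophages held one in 13.9% and 12.2% in Adar1-null and 14.5% and 19.6% in control libraries.

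Melanoma cells, which served as a type with little of the gene, held a UMI in 9.17% and 12% of cells in Adar1-null and 10.6% and 18.4% in control libraries, at a median of 29321 to 34603 UMIs per cell. The macrophage share was close to this background at a much lower depth (median 7473 to 8881 UMIs), so the shares were compared after thinning every cell to 3900 UMIs. All kept cells reached that number. Thinned, melanoma cells stood at 1.18% and 0.362% in Adar1-null and 2.03% and 2.73% in control libraries. Thinned macrophages stood at 9.74% and 8.97% in Adar1-null and 9.57% and 13.7% in control libraries, above the melanoma share in each library. Thinned CD8 T cells stood at 36% and 32.5% in Adar1-null and 49.2% and 59.8% in control libraries, so the groups stood apart at equal depth as well.

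Counts were uneven between cells of 1 gate. Of 1078 CD8 T cells, 446 had no AA467197 UMI, 170 had 1 and 73 had 10 or more, and those 73 cells, 6.77% of the gate, held 42.9% of its AA467197 UMIs. Among 3912 macrophages, 3279 had no UMI and 73 had 10 or more, which was 1.87% of cells and 53.7% of UMIs. The macrophage level was thus the sum of many cells without a count and few cells with many, with up to 81 UMIs in 1 cell.

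Within CD8 T cells the level was higher in cells with granzymes C, D, E and F, serine proteases of killer cell granules that strongly activated T cells make. Cells with a UMI of at least 3 of these 4 genes had 532 and 880 CPM in Adar1-null libraries (22 and 12 cells) and 1170 and 568 CPM in control libraries (40 and 84 cells), and 94% to 100% of them held an AA467197 UMI. In these cells the groups overlapped. Cells with fewer of the 4 genes had 126 and 155 CPM in Adar1-null and 222 and 272 CPM in control libraries, and here the groups stood apart (13.3% of genes tested did so in this direction). In cells with none of the 4 genes the level was 94.9 and 117 CPM in Adar1-null and 167 and 231 CPM in control libraries. In every library cells with all 4 genes were above cells with none, at 643 and 1318 CPM in Adar1-null (15 and 5 cells) and 1181 and 633 CPM in control libraries (30 and 65 cells).

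The granzyme C to F cells took a different share of each library. They gave 9.52% and 4.53% of the CD8 T cell UMIs in Adar1-null and 21.7% and 41.4% in control libraries. With the same mix of both kinds of cell set in every library (the mean of the 4 shares), the CD8 T cell level was 205 and 295 CPM in Adar1-null and 404 and 329 CPM in control libraries. The log2 ratio of the group means, Adar1-null over control, was then -0.55, against -1.25 fitted on the CD8 T cells as they were. The groups still stood apart at the equal mix, by less than before, with the granzyme C to F genes still lower in the Adar1-null libraries within the cells that held fewer than 3 of them.

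Macrophages differed among themselves by the marker genes they held. Macrophages with a UMI of at least 3 of 5 genes of the Arg1 and Spp1 type, which marks hypoxic, remodelling tumour macrophages, had 125 and 108 CPM in Adar1-null and 187 and 158 CPM in control libraries. Of the rest, macrophages of the resident type, with at least 5 of 8 marker genes, had 7.25 CPM and a count of 0 (14 cells, which allows a share of cells with a UMI of up to 21.4%) in Adar1-null and 10.4 and 5.26 CPM in control libraries. All other macrophages had 33.8 and 52.2 CPM in Adar1-null and 42.9 and 87.6 CPM in control libraries, with overlapping groups. Macrophages with none of the 8 resident-type genes had 329 and 160 CPM in Adar1-null and 390 and 377 CPM in control libraries, of the order of the monocyte level. Along the Arg1 and Spp1 list the order was less regular, and Adar1-null library S2 had 89 CPM in cells with none of the 5 genes and 11.9 CPM in the 17 cells with 4.

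Monocytes also differed by the Arg1 and Spp1 list. Those with none of the 5 genes had 54.2 and 161 CPM in Adar1-null and 45.5 and 11.8 CPM in control libraries. Those with 3 of them had 336 and 922 CPM in Adar1-null (17 and 9 cells) and 250 and 505 CPM in control libraries (13 and 38 cells). Cells with 3 were thus above cells with none in each library, and between the groups there was overlap.

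**Figure D2:**
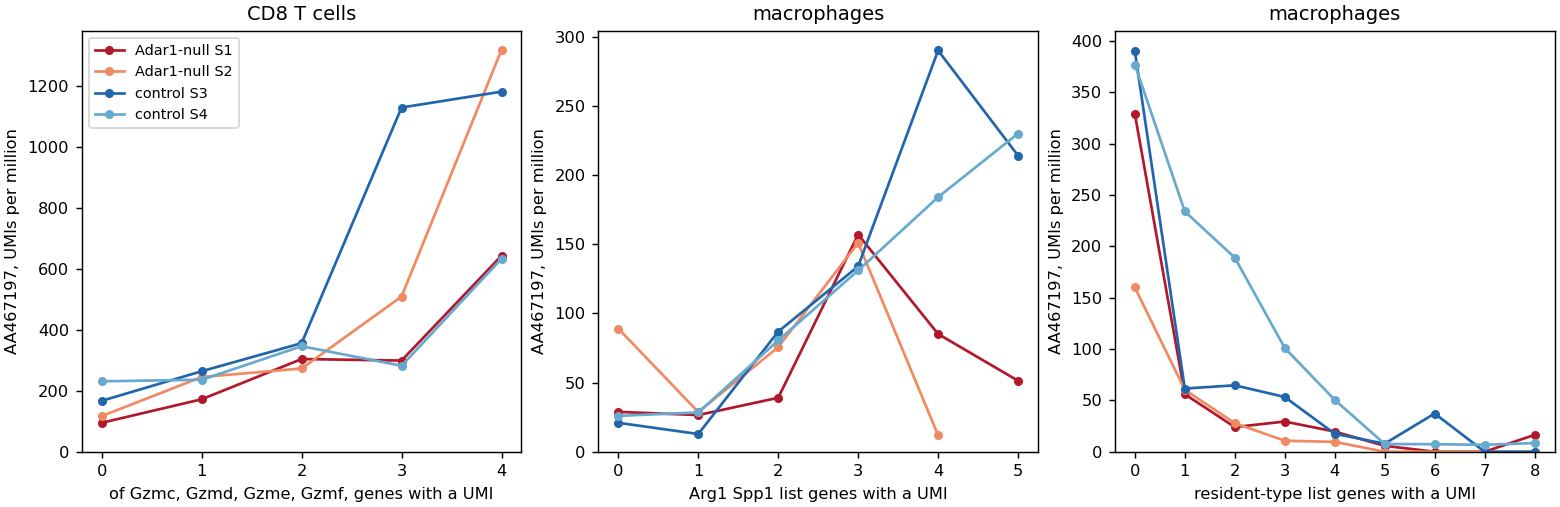
AA467197 in CPM by the number of marker genes with a UMI in the cell, 1 line per library, for strata of at least 5 cells: granzymes C to F in CD8 T cells, the Arg1 Spp1 list and the resident-type list in macrophages. The level is higher with all 4 granzyme genes than with none in each library and is at most 37.2 in macrophages with 5 or more resident-type genes.

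The genes that varied most with AA467197 over cells differed by cell type. Correlations were computed on log2(CP10k + 1) values within each library and averaged over the 4 libraries, and they describe cells that share a library and a sequencing depth. Over 1078 CD8 T cells the 10 genes with the highest mean Pearson r of 8155 compared were Gzmc (0.45), Gzmf (0.44), Gzme (0.42), Lgals1 (0.4), Gzmd (0.39), Gzmb (0.37), S100a4 (0.35), S100a6 (0.35), Il1r2 (0.34) and Ctsd (0.32). Of these, 5 encode granzymes, Lgals1 encodes a galectin, S100a4 and S100a6 encode calcium-binding proteins, Il1r2 encodes the decoy receptor for interleukin 1, and Ctsd encodes a lysosomal protease. The median over all genes compared was 0, and r between AA467197 and log2 depth was -0.01 to 0.16 in the 4 libraries.

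Over 775 monocytes the highest were Cd9 (0.38), Srgn (0.31), Il1rn (0.3), Basp1 (0.28), Hilpda (0.28), Lgals3 (0.28), Arg1 (0.27), Cstb (0.26), Mif (0.26) and Clec4n (0.26). Over 3912 macrophages they were Srgn (0.33), Cd9 (0.29), S100a11 (0.28), F10 (0.27), Fxyd5 (0.26), Slc7a11 (0.26), Il1rn (0.25), S100a6 (0.25), Capg (0.25) and Il7r (0.24). Cd9, a tetraspanin, Srgn, the granule proteoglycan serglycin, and Il1rn, the interleukin 1 receptor antagonist, were named in both gates, and S100a6 in macrophages and CD8 T cells. In the pooled dendritic gates (469 cells) the highest were Bcl2a1b (0.48), Cxcl16 (0.46), Ccl22 (0.45), Ramp3 (0.43), Ccr7 (0.43), Socs2 (0.43), Marcksl1 (0.43), Il4i1 (0.42), Tuba1a (0.41) and Traf1 (0.41). Ccl22, Ccr7, Socs2 and Il4i1 are also markers used to gate migratory dendritic cells, so these values hold the difference between dendritic types. In melanoma cells no gene exceeded 0.18, and that gene, AF251705, had an r of 0.53 in S3 against 0.03 to 0.08 in the other libraries.

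**Figure D3:**
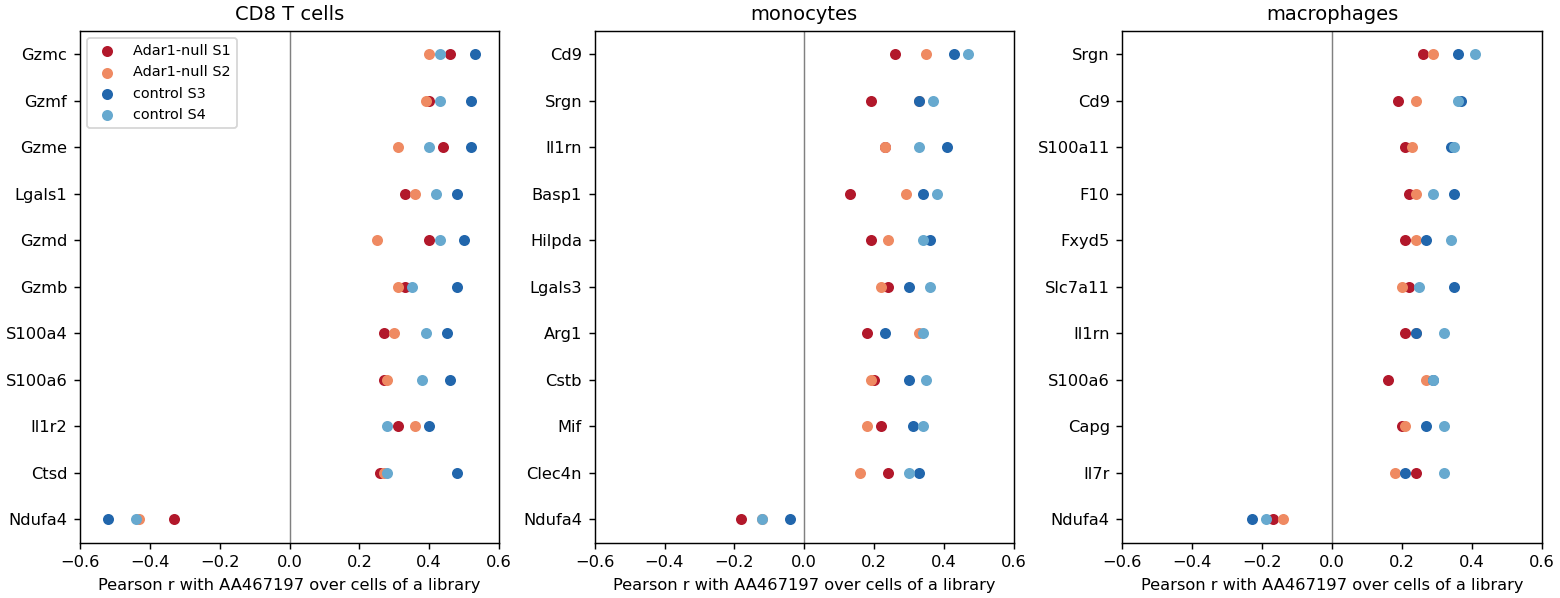
Pearson r with AA467197 over the cells of each library (x axis) for the 10 genes with the highest mean r in CD8 T cells, monocytes and macrophages, and for Ndufa4; 1 point per library. The named genes lie above 0 in all 4 libraries, and Ndufa4 lies below 0 in all 4 libraries of each type.

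Of all genes compared in CD8 T cells, Ndufa4 had the lowest correlation with AA467197. Ndufa4, the complex IV subunit whose place the AA467197 protein can take, had an r of -0.33 and -0.43 in Adar1-null and -0.52 and -0.44 in control libraries, and it ranked lowest of 8155 genes in each of the 4 libraries separately. Next from the bottom, named after their values were seen, came the ribosomal protein genes Rplp0 (-0.29), Rpl12 (-0.27) and Rpsa (-0.26). With cells thinned to 3900 UMIs the mean r of Ndufa4 was -0.31, still the lowest. In macrophages Ndufa4 had a mean r of -0.18 and was the 16th lowest of 8003 genes, in the dendritic gates -0.28 and the 46th lowest of 7520, in monocytes -0.12 and the 207th lowest of 6449. The rank was thus at the bottom in CD8 T cells and only near it in the other types, and no difference between types was tested. The dendritic gates were pooled, and migratory cells were high in AA467197 and low in Ndufa4. The dendritic r holds that difference between dendritic types too.

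Ndufa4 was lower with each step up in the number of AA467197 UMIs of a CD8 T cell. It averaged 525 ± 45.7 CPM in cells with no AA467197 UMI, 439 ± 53.3 with 1, 366 ± 61.3 with 2 to 4, 264 ± 30.9 with 5 to 9 and 185 ± 17.6 with 10 or more (SD, n = 4 libraries). The ranges of the first and the last class did not overlap. The other genes of the complex IV list, summed, averaged 8041 ± 417, 8254 ± 483, 8179 ± 539, 8247 ± 532 and 8230 ± 633 CPM in the same classes. Within each library the sum was higher with 1 UMI than with none. With 10 or more against none it was 8851 against 8303 and 7934 against 8003 CPM in S1 and S2 (Adar1-null). In S3 and S4 (control) it was 8651 against 8393 and 7486 against 7467 CPM. Because AA467197 and Ndufa4 are counted in the same cell as shares of 1 total, the summed list served as a measure that shares that total. The class with 10 or more was deeper, with medians of 10589 to 15523 UMIs per cell against 7400 to 9145 with none. With the granzyme C to F cells left out, 25 of its 73 cells remained. Ndufa4 then averaged 531 ± 39.4, 442 ± 49.6, 371 ± 79.2, 300 ± 36 and 278 ± 94.1 CPM over the classes. The last step was then upward in S1 (345 to 373) and S3 (291 to 343).

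In CD8 T cells split by any AA467197 UMI, Ndufa4 stood at 410 and 329 CPM in positive cells of Adar1-null libraries and 335 and 263 CPM in positive cells of control libraries. In cells without a UMI it stood at 571 and 519 CPM in Adar1-null and 546 and 464 CPM in control libraries. Positive cells were thus lower in each of the 4 libraries, by a mean log2 difference of -0.67. With the granzyme C to F cells left out, the difference was -0.52 and was again negative in 4 of 4 libraries. It was -0.46 in macrophages, -0.24 in monocytes and -0.49 in the dendritic gates, negative in 4 of 4 libraries each. The dendritic gates were pooled, so their value holds the difference between dendritic types too. Ndufa4 averaged 212 ± 29.1 CPM in migratory dendritic cells and 388 ± 80 CPM in cDC2. Within cDC2 it averaged 430 ± 72.8 CPM with no AA467197 UMI and 376 ± 223 CPM with 10 or more. The difference between positive and negative cells was below 0 in 3 of 4 libraries in cDC2 and in 3 of 4 in migratory dendritic cells, where 2 to 8 cells per library had no AA467197 UMI.

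Macrophages gave the same order with more scatter. Ndufa4 averaged 455 ± 65.1 CPM with no AA467197 UMI, 386 ± 72.6 with 1, 323 ± 70.1 with 2 to 4, 252 ± 61.2 with 5 to 9 and 211 ± 66.9 with 10 or more. The rest of the list averaged 8110 ± 750, 8019 ± 532, 7635 ± 548, 7266 ± 855 and 7924 ± 895 CPM in the same classes, so it too was lower in the middle classes. In monocytes Ndufa4 averaged 387 ± 75.7 CPM with none and 281 ± 74.5 with 10 or more, with 228 ± 141 at 5 to 9, so the order there was not regular.

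**Figure D4:**
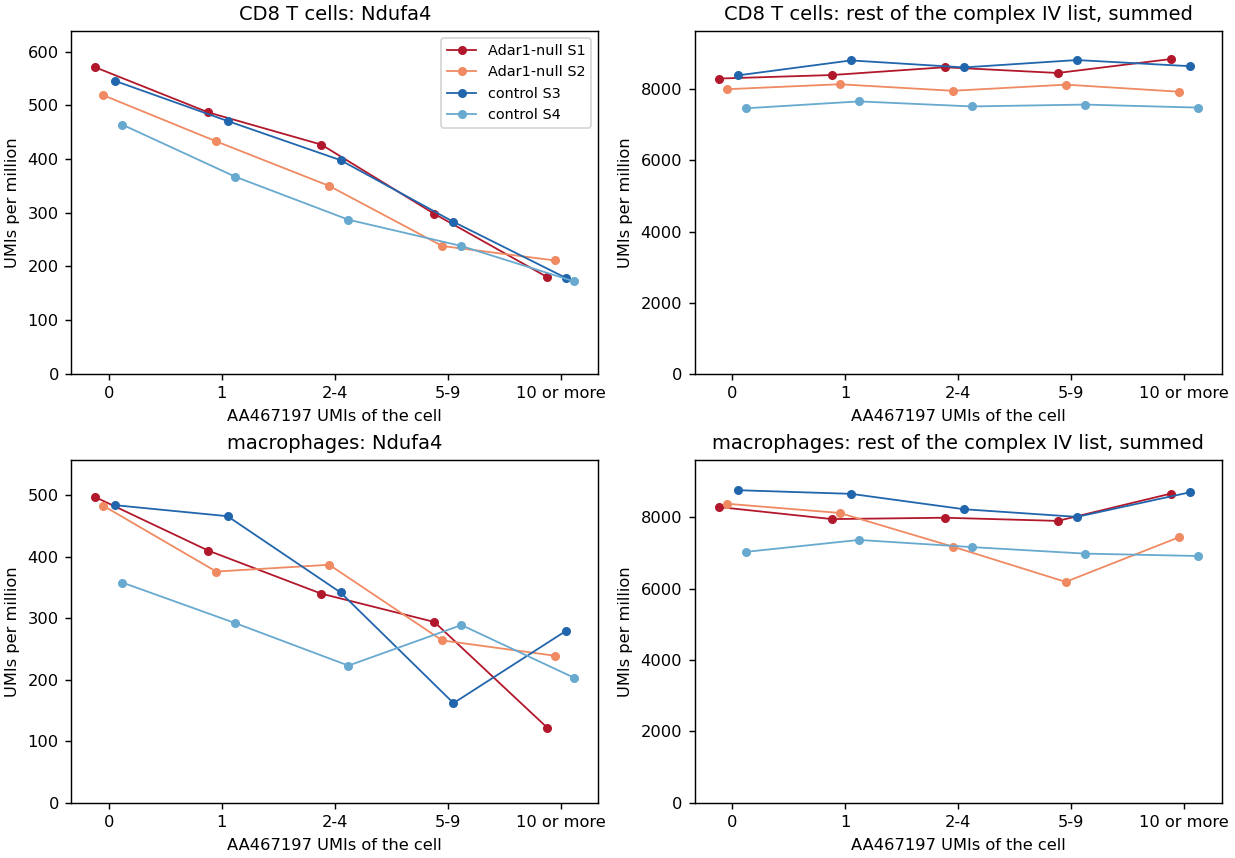
Ndufa4 (left) and the other genes of the complex IV list summed (right), in CPM, by the number of AA467197 UMIs of the cell in CD8 T cells (top) and macrophages (bottom); 1 line per library, axes from 0. In CD8 T cells Ndufa4 is highest in cells without the gene's UMIs (mean 525) and lowest with 10 or more (185) in all 4 libraries, while the summed list stays between means of 8041 and 8254.

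Between gates the relation was carried by the extremes. Ndufa4 was lowest in endothelial cells (99.3 ± 85.6 CPM, 13 cells) and migratory dendritic cells (212 ± 29.1) and highest in melanoma cells (1429 ± 86.7; SD, n = 4 libraries). Other gates overlapped, at 386 ± 53.5 CPM in cDC1, where AA467197 averaged 16.3 CPM, and 388 ± 80 CPM in cDC2, where AA467197 averaged 409 CPM. CD8 T cells (402 ± 78.3), monocytes (371 ± 74.6) and macrophages (436 ± 67.1) lay within the same spread. Over 18 units of gate and library with at least 50 cells, r between Ndufa4 and AA467197 on log2(CPM + 1) was -0.94, and Ndufa4 ranked the 106th lowest of 9087 genes. The genes most like AA467197 over these units were S100a4 (0.99), Smim3, Ifngr1, Lsp1, Orai1, Matk, Cytip, Vopp1, Dusp5 (0.98 each) and Eif3k (0.97). These units are 5 cell types repeated over libraries, melanoma among them and cDC1 not, so many genes that separate tumour cells from leukocytes share this pattern.

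Gene groups tied to inducible expression were compared with AA467197 within cells. Of the hypoxia list, genes induced by low oxygen through Hif1a, 13 of 13 had a positive mean r in CD8 T cells (median 0.11), 14 of 14 in monocytes (0.19) and 13 of 14 in macrophages (0.15), where the median over all genes was -0.01 to 0. Hilpda, a lipid droplet protein, had 0.23, 0.28 and 0.24, and Aldoa, a glycolytic enzyme, had 0.27, 0.25 and 0.19 in these types. Of the NF-kB and toll-like receptor list, 8 of 17 were positive in CD8 T cells (median 0.01), 23 of 29 in monocytes (0.06), 25 of 29 in macrophages (0.07) and 21 of 27 in the dendritic gates (0.18). The dendritic gates were pooled, so their medians in this paragraph hold the difference between dendritic types. There the median over all 7520 genes compared was -0.03. Marcksl1 and Traf1 of this list were named above beside markers of migratory dendritic cells. Irg1, which makes the mitochondrial metabolite itaconate in activated macrophages, had 0.23 in monocytes and 0.15 in macrophages. Of the interferon-stimulated list, 6 of 14 were positive in CD8 T cells (median -0.01), 17 of 22 in monocytes (0.06), 22 of 23 in macrophages (0.07) and 15 of 20 in the dendritic gates (0.06).

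The 6 protein-coding genes within 250 kb on chromosome 2 had correlations near 0 with AA467197. Their mean r lay between -0.05 and 0.09 in CD8 T cells, -0.04 and 0.09 in macrophages and -0.08 and 0.08 in monocytes, where Gm14085 had no UMI. No minimum share of cells was set for these genes, and low counts limit how far r can rise. Gm14085 averaged 0.0761 CPM and Sqor 1.15 CPM in CD8 T cells, and Slc30a4 averaged 1.04 CPM in macrophages. Bloc1s6, a subunit of a complex for lysosome-related organelles, had 31.8 and 32.3 CPM in Adar1-null and 32.1 and 35.4 CPM in control CD8 T cells, with overlapping groups. Gatm, which makes the precursor of creatine and lies nearest on the upstream side, had 116 and 72 CPM in Adar1-null and 96.2 and 70.9 CPM in control macrophages, with overlapping groups.

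The level in the Adar1-null libraries was lower than in the control libraries in most gates, by different amounts. Fitted by edgeR with TMM scaling, the log2 difference, Adar1-null over control, was -1.25 in CD8 T cells, and 0.576% of the 8858 genes tested had a lower one. Both Adar1-null libraries lay below both control libraries, as they did for 14.1% of the genes tested in CD8 T cells. The difference was -0.84 in CD8 T cells without the granzyme C to F cells, where groups likewise stood apart and the granzyme C to F list still summed to 285 and 130 CPM in Adar1-null and 604 and 805 CPM in control libraries. It was -0.58 in macrophages, -0.54 in their Arg1 and Spp1 part and -0.47 in melanoma cells, also without overlap (17.9%, 16.6% and 14.3% of genes). With a stricter gate it was -0.19 in the Arg1 and Spp1 part and -0.2 in melanoma cells, which gave -0.24 without S4. It was -0.53 in monocytes and -0.2 in the dendritic gates, where the groups overlapped. The pooled dendritic value held unlike parts. In cDC2 both Adar1-null libraries lay below both control libraries, with means of 298 and 520 CPM (log2 ratio of means -0.8). The groups overlapped in migratory dendritic cells (-0.1) and in cDC1 (1.44, from 8 or fewer UMIs in each library). These gates were too small for a fit, and the share of all genes that stood apart in cDC2 was not computed. Marker lists moved with these gates: in the dendritic gates the migratory list (10 of 10 genes with a UMI) summed to 3592 and 1633 CPM in Adar1-null and 1599 and 1226 CPM in control libraries. In monocytes the Arg1 and Spp1 list (5 of 5 genes) summed to 2153 and 981 CPM in Adar1-null and 2878 and 7762 CPM in control libraries. In macrophages the resident-type list (8 of 8 genes) summed to 1400 and 754 CPM in Adar1-null and 1948 and 6314 CPM in control libraries, and the macrophage list (10 of 10) to 17970 and 17734 CPM in Adar1-null and 19498 and 37393 CPM in control libraries. With the 3 kinds of macrophage set at 1 mix in every library, AA467197 stood at 53.3 and 60.3 CPM in Adar1-null and 74.5 and 95.8 CPM in control libraries. The part of the lists in the dendritic and monocyte differences was not tested.

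Single libraries decided part of these values. Without control library S4 the difference was -1.3 in CD8 T cells, -0.28 in macrophages, -0.01 in monocytes and -0.35 in the dendritic gates, where it was 0.01 without Adar1-null library S2. The CD8 T cell difference thus did not rest on S4, while the monocyte difference did. Over the infiltrate as a whole AA467197 stood at 67.4 and 95.9 CPM in Adar1-null and 122 and 119 CPM in control libraries, without overlap (14.5% of 13467 genes were so), with a fitted log2 difference of -0.63. In such whole-library sums, fewer cells of a type and less RNA per cell cannot be told apart.

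**Figure D5:**
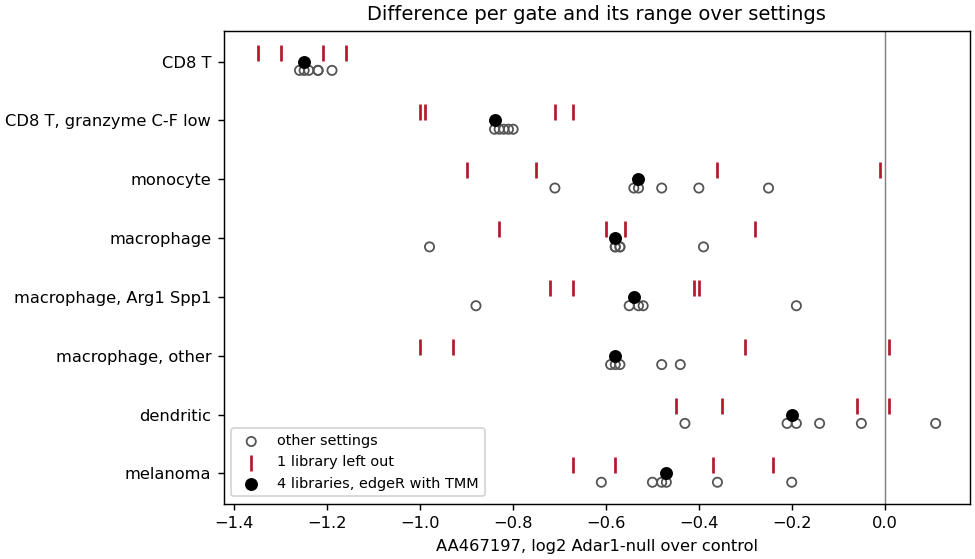
Log2 difference of AA467197, Adar1-null over control (x axis), per gate: black, 4 libraries; red ticks, 1 library left out; open circles, other settings. In CD8 T cells every value lies between -1.35 and -1.16, while in monocytes the values reach -0.01 and in the dendritic gates they cross 0.

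Marker lists of other cell types moved in both directions in the CD8 T cell gate. The natural killer list (7 of 7 genes with a UMI) was higher without overlap, at 256 and 319 CPM in Adar1-null and 248 and 201 CPM in control libraries. The macrophage list (10 of 10 genes with a UMI) summed to 237 and 161 CPM in Adar1-null and 226 and 620 CPM in control libraries, with overlap, against 17734 to 37393 CPM in the macrophage gate. The cDC2 list (9 of 9 genes, some of which lymphocytes also express) summed to 710 and 626 CPM in Adar1-null and 836 and 771 CPM in control libraries, without overlap. The resident-type macrophage list (8 of 8) summed to 27.6 and 12.2 CPM in Adar1-null and 34.1 and 96.1 CPM in control libraries, and the neutrophil list (6 of 7, Cxcr2 at 0) to 0.837 and 0.913 CPM in Adar1-null and 1.57 and 33.9 CPM in control libraries. The regulatory T cell list (4 of 5, Foxp3 at 0) and the mast cell list (2 of 5, Cpa3, Ms4a2 and Gata2 at 0) were lower without overlap, at 493 to 494 and 0.418 to 0.609 CPM in Adar1-null and 509 to 585 and 4.31 to 5.06 CPM in control libraries. Cells with a Foxp3 UMI were kept out of the CD8 T cell gate. The list for migratory dendritic cells, the gate with the highest AA467197, had 9 of 10 genes with a UMI (Apol7c at 0) and summed to 52.3 and 39.6 CPM in Adar1-null and 46.2 and 63.4 CPM in control libraries, so it overlapped between groups. The granzyme C to F list summed to 907 and 255 CPM in Adar1-null and 3260 and 7461 CPM in control libraries. Its part in the CD8 T cell difference is measured above only in so far as cells with at least 3 of its genes were held at an equal mix or left out, since the list differed among the other cells too. The red blood cell list (3 of 4 genes, Alas2 at 0) was at 0 in both Adar1-null libraries and at 1.96 and 47.5 CPM in control libraries. The part of the lists other than granzymes C to F was not tested.

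Few other genes differed between the groups in the same fits. In CD8 T cells the quasi-likelihood test of edgeR, adjusted by Benjamini-Hochberg over all genes, called 12 of 8858 genes (0.135%), among them AA467197, whose call is no result here because the gene was chosen on this contrast. The other calls were 7 higher and 4 lower genes in Adar1-null libraries. Without the granzyme C to F cells it called 5 of 8436 genes (0.0593%), AA467197 among them, while DESeq2 called 0 and an unadjusted p under 0.05 was found for 220 higher and 243 lower genes. Fits of all CD8 T cells that left out 1 library at a time called 49 to 132 genes. Il1r2, which was also among the 10 genes nearest to AA467197 over CD8 T cells, was one of the lower genes, at 15.1 and 23.4 CPM in Adar1-null and 56.8 and 79.8 CPM in control libraries (log2 difference -1.83 ± 0.23 SE, edgeR adjusted p = 0.00989). The others lower were H1f0, a linker histone (-0.96, edgeR adjusted p = 0.00989), Serpinb6b, an inhibitor of granule proteases (-0.97, edgeR adjusted p = 0.00989), and Exph5, a Rab27 effector (-1.27, edgeR adjusted p = 0.0326). Without the granzyme C to F cells edgeR still called H1f0 (-0.93, edgeR adjusted p = 0.0126) but not Il1r2, Serpinb6b or Exph5. The part of the granzyme C to F cells in these calls was not tested.

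The first 5 higher genes by p were Cd74 (0.91, edgeR adjusted p = 0.00901) and H2-Ab1 (1.16, edgeR adjusted p = 0.00989) of antigen presentation by MHC class II, the ribosomal protein gene Rpl23a (0.98, edgeR adjusted p = 0.00901), the chromatin protein gene Hmgn1 (0.92, edgeR adjusted p = 0.0305) and Gm28727 (1.55, edgeR adjusted p = 0.0326). Rpl23a has near-identical copies in the genome, so its count is uncertain. Lyz2, a marker of monocytes and macrophages, had a UMI in 52% of the cells in the CD8 T cell gate. The part of RNA from other cell types in the Cd74 and H2-Ab1 calls was not tested. Without the granzyme C to F cells edgeR still called Cd74 and Rpl23a, but not H2-Ab1, Hmgn1 or Gm28727. The test called 0 of 6547 genes in monocytes and 0 of 10650 in macrophages (0% in each). An unadjusted p under 0.05 was found for 146 higher and 167 lower genes in monocytes and for 161 higher and 321 lower genes in macrophages, and DESeq2 called 3 and 16 genes there. Summed over all kept cells it called 0 of 13467 genes (0%), with 401 higher and 824 lower genes at an unadjusted p under 0.05 and 93 calls by DESeq2. In the dendritic gates it called 1 of 6593 genes (0.0152%), Ccl8, a chemokine that attracts monocytes, at 80.8 and 61.7 CPM in Adar1-null and 274 and 276 CPM in control libraries (log2 difference -2.01, edgeR adjusted p = 0.000357). Macrophage markers in the dendritic gates moved the same way without overlap. The macrophage list (10 of 10 genes with a UMI) summed to 549 and 696 CPM in Adar1-null and 1301 and 1776 CPM in control libraries, the resident-type list (8 of 8) to 50.8 and 81.4 CPM in Adar1-null and 214 and 341 CPM in control libraries, and the Arg1 and Spp1 list (5 of 5) to 97 and 65.6 CPM in Adar1-null and 169 and 310 CPM in control libraries. Their part in the Ccl8 call was not tested.

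No gene of the fixed lists passed edgeR's adjusted threshold in CD8 T cells, monocytes, macrophages or the dendritic gates, while 7 to 19 did in CD8 T cells in fits that left out 1 library. Ndufa4 had 490 and 418 CPM in Adar1-null and 401 and 300 CPM in control CD8 T cells. Its groups did not overlap and ran opposite to AA467197, as they did for 21.7% of genes tested in CD8 T cells, but the difference did not pass (log2 0.34 ± 0.14 SE, edgeR adjusted p = 0.701). Of 13 complex IV genes in CD8 T cells 1, Ndufa4, had an unadjusted p under 0.05, as did 267 higher and 318 lower genes of all 8858 tested, which is a like share. The median log2 difference of the list was 0.02, against 0 over all genes tested. In macrophages Ndufa4 had 476 and 468 CPM in Adar1-null and 466 and 336 CPM in control libraries, again without overlap (16.8% of genes were so; log2 0.23 ± 0.2 SE, edgeR adjusted p = 0.885).

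Of the hypoxia list, Hilpda was the first by p in CD8 T cells, at 102 and 98 CPM in Adar1-null and 143 and 190 CPM in control libraries (log2 -0.78 ± 0.15 SE, edgeR adjusted p = 0.0751). In monocytes 1 of 14 hypoxia genes had a positive log2 difference, with a median of -0.74, and 4 had an unadjusted p under 0.05. There Ero1l, an oxidase of the endoplasmic reticulum, had 211 and 149 CPM in Adar1-null and 280 and 468 CPM in control libraries (edgeR adjusted p = 0.96). In macrophages 7 of 15 were positive, with a median of -0.1. Of the NF-kB and toll-like receptor list the median log2 difference was 0.08 in CD8 T cells, -0.12 in monocytes and 0.2 in macrophages.

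The interferon-stimulated list had positive log2 differences in 17 of 17 genes tested in CD8 T cells (median 0.74), 22 of 22 in monocytes (0.85) and 24 of 24 in macrophages (0.79), where the median of all genes was 0. The unadjusted p was under 0.05 for 7, 8 and 6 of them, against 267 of 8858, 146 of 6547 and 161 of 10650 genes with a higher value over all genes tested. AA467197 thus differed in the direction opposite to the fitted values of this list in CD8 T cells and macrophages, though by -0.28 in macrophages without S4. In monocytes its groups overlapped and its difference was -0.01 without S4, so no direction is given there. Of the granzyme and effector list, 4 of 14 were positive in CD8 T cells, with a median of -0.4. Gzmg had 12.1 and 0.304 CPM in Adar1-null and 337 and 342 CPM in control CD8 T cells (edgeR adjusted p = 0.641).

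Outside the leukocyte gates, AA467197 was also counted in the few endothelial cells. Of 13 cells in that gate 9 held an AA467197 UMI, 357 UMIs in all and up to 97 in a cell. All 13 had a UMI of Cdh5, the cadherin of vessel walls and a marker used for that gate, and 1 had a UMI of Ptprc, which encodes CD45. Per library the level was 711 and 2620 CPM in Adar1-null (3 and 3 cells) and 1401 and 0 CPM in control libraries (5 and 2 cells), too few cells to compare groups. Regulatory T cells had 59.8 and 28.4 CPM in Adar1-null and 23.7 and 1057 CPM in control libraries, and in S4 54 of 72 UMIs came from 1 cell.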

How the data were processed

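Messenger RNA of CD45-selected tumour cells was measured in 4 droplet libraries. The authors deposited raw UMI counts of every gene in every barcode as 1 matrix. Cell Ranger, Seurat 2.2.0 and the build mm10 are named per the submitters' processing notes, and the rule that chose the barcodes is not given in the sources used here. Library names show the group but no replicate number, so S1 and S2 are Adar1-null and S3 and S4 control. P-values measure the spread between these samples, which may be technical.

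Cells with under 500 genes, over 10% mitochondrial UMIs or a Scrublet doublet score over 0.1 were removed (269; Scrublet's automatic threshold marked 36). Libraries held 23850251 to 33636018 UMIs. Gates counted fixed markers with a UMI; 514 kept cells met no gate and 377 met several, and both were left out. Correlations used the same cells and genes with a UMI in at least 5% of a gate, except for the genomic neighbours, which had no such minimum. Gate thresholds were set after marker counts had been seen, and the split of regulatory from CD8 T cells after AA467197 values had been seen. The gene and all lists were chosen with earlier results of these data known. Summed counts were tested with edgeR 4.0.16 (filterByExpr, TMM, robust quasi-likelihood, Benjamini-Hochberg over all genes, 0.05) where every library had at least 50 cells; DESeq2 1.42.0 was an alternative. The edgeR step was tested on simulated data. Named genes were the 10 with the highest mean r per gate, positive in all libraries, the first 3 of each list and the first 5 calls per direction by p, those of a list being named where they bear on AA467197.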

Additional observations from a re-analysis of the deposited data

Results flagged for a closer look

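In fibroblast-gated cells, which no comparison above uses, AA467197 stood at 0 and 742 CPM in S1 and S2 (Adar1-null) and at 23.8 and 21.7 CPM in S3 and S4 (control). The value of S2 was above both control libraries and came from 14 cells, 8 of them with a UMI and 1 with 111 of the 183 UMIs. All 45 fibroblast-gated cells had a UMI of Col1a1, a collagen gene and a marker used for that gate, and 1 had a UMI of Ptprc. The groups overlapped, and groups of 2 libraries allow no test for a library far from the others.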

How the results depend on the processing

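No paired analysis was possible because the library names carry no replicate number. The fitted AA467197 difference kept its sign in CD8 T cells under all 10 alternatives (-1.35 to -1.16). Leaving out 1 library gave -0.9 to -0.4 in the whole infiltrate, -0.9 to -0.01 in monocytes, -0.83 to -0.28 in macrophages and -0.45 to 0.01 in the dendritic gates. With Leiden clusters for gates it was -0.98 in macrophages, and with a stricter gate 0.11 in dendritic cells. Mean shares of cells with a UMI over libraries were 44.4% thinned and 44.1% at 2 or more UMIs in CD8 T cells (60.1% as reported), 10.5% and 7.62% in macrophages (15.1%), 74.5% and 69.1% in migratory dendritic cells (82.7%), and at 2 or more UMIs 18.4% in monocytes (26.9%) and 35% in cDC2 (47.1%).

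Genes called by DESeq2 numbered 93 in the whole infiltrate, 3 in monocytes, 16 in macrophages and 6 in dendritic cells, and members of the fixed lists 5, 3, 3 and 1, with 2 in CD8 T cells. With no filter on low counts the calls were 1 in the whole infiltrate, 111 in CD8 T cells, 76 in monocytes, 476 in macrophages and 103 in dendritic cells. With 1 library left out, the lone library of its group being assumed to vary like the others, calls ranged from 0 to 140, 49 to 132, 0 to 481, 0 to 45 and 2 to 120 in the same order, and list members from 0 to 5, 7 to 19, 0 to 46, 0 to 1 and 0 to 14; the cause was not tested. Of the 10 co-varying genes, 1 (Spearman), 0 (thinned) and 2 to 7 (1 library left out) were found again in melanoma cells, and 6 to 9 in monocytes with 1 library left out. Depth limits the small gates most: with 2 libraries per group and under 50 cells in some, cDC1, cDC2, migratory dendritic and endothelial values are descriptions.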

Other observations

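Natural killer cells, innate lymphocytes that also carry granzymes, had 191 and 106 CPM of AA467197 in Adar1-null libraries (9 and 29 cells) and 136 and 353 CPM in control libraries (36 and 13 cells), with overlapping groups. T cells outside the CD8 and regulatory gates had 46.9 and 135 CPM in Adar1-null (41 and 34 cells) and 190 and 391 CPM in control libraries (23 and 12 cells). These gates were too small to be tested. Plasmacytoid dendritic cells, the main makers of type I interferon, had 0 and 1 UMIs in Adar1-null and 2 and 1 UMIs in control libraries, from 7 and 16 cells and 7 and 9 cells.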
